A study of Mus musculus with 22 samples.

Results

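The genes described here are the nuclear genes of mitochondrial oxidative phosphorylation, followed in mouse colon with and without chemically induced colitis. They were taken from the deposited expression table by the form of their symbols: Nduf genes of the a, b, c, s and v series, the 4 Sdh genes, Uqcr genes, Cox4 to Cox8 genes and Atp5 genes. That gave 92 of the 23997 rows of the table, sorted by symbol into complex I (45), complex II (4), complex III (8), complex IV (18) and complex V (17). By known function 81 of them encode subunits or tissue isoforms of subunits, and 11 encode assembly factors or related proteins, among them the 7 Ndufaf assembly factors of complex I. The subunits that the mitochondrial genome itself encodes had no row in the form mt- and were not analysed here, and neither was Cyc1, the cytochrome c1 subunit of complex III, which the symbols searched do not cover.

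Total RNA of colon was sequenced from wild type BALB/c mice in 22 libraries, with 8 in the group CON, 5 each in DSS and TM, and 4 in HMLS. Mice were 5 weeks old at the start and drank for 3 weeks: distilled water in CON and DSS, and the deep sea water samples named HMLS and TM in the groups of those names. In DSS, HMLS and TM the drinking water of the last 1 week held 5% DSS (dextran sulfate sodium, a detergent-like polymer that injures the colon lining and is widely used to induce colitis), whereas CON received none. Mice given either deep sea water without DSS were not analysed here, so comparisons of HMLS or TM with CON differ in both the water and DSS, and those with DSS differ in the water alone. Whether every library stands for its own mouse was not stated in the labels, so p-values measure the spread between these libraries, which may in part be technical.

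In oxidative phosphorylation, complexes I and II take electrons from NADH and succinate and pass them through ubiquinone to complex III, which hands them to cytochrome c, and complex IV passes them on to oxygen. Complexes I, III and IV pump protons across the inner mitochondrial membrane, and complex V, the ATP synthase, lets them flow back to make ATP. Most of the subunits are encoded in the nucleus and imported, so each complex is assembled from products of both genomes. Colonocytes, the absorptive cells of the colon lining, are known for burning butyrate made by gut bacteria through this pathway, and smooth muscle of the colon wall also relies on it.

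The libraries held 48089882 to 68733410 reads. Reads mapped at a mean of 91.0% (SD 0.711) over the 8 CON libraries, 86.6% (SD 2.81) over the 5 DSS libraries, 89.9% (SD 0.762) over the 4 HMLS libraries and 91.5% (SD 1.27) over the 5 TM libraries, and the DSS libraries (82.3% to 88.9%) lay below every CON library (89.9% to 91.9%). Of 12 colonocyte markers all reached 1 FPKM, with a summed level of 9105 to 13299 FPKM in CON, 6633 to 11808 FPKM in DSS, 9184 to 12845 FPKM in HMLS and 6837 to 9777 FPKM in TM. Counted singly, 4, 3 and 1 of these 12 were higher than CON in DSS, HMLS and TM (33.3%, 25% and 8.33%). Of all genes 14%, 17.5% and 14.3% were higher. Lower than CON were 1, 1 and 2 of the 12, so the sums do not stand for each marker. FPKM is the number of fragments per transcript length and library size. The neutrophil markers summed to 0.66 to 2.12 FPKM in CON, 3.04 to 73.6 FPKM in DSS, 2.09 to 23.9 FPKM in HMLS and 5.80 to 98.2 FPKM in TM. Of 8 tested markers of crypt stem and proliferating cells 6, 8 and 6 were lower than CON in DSS, HMLS and TM. Lower were also 5, 5 and 2 of 6 fibroblast markers, and 4, 5 and 0 of 8 lymphocyte and plasma cell markers. The same counts were 4, 5 and 1 of 7 endothelial markers and 2, 5 and 0 of 8 macrophage markers. Of all genes 13.1%, 16.6% and 11.8% were lower. The part of these markers in the levels below was not tested. The library CON 6 had the lowest sum over all genes (415392 FPKM) and CON 8 the highest (554007 FPKM). In such whole tissue, fewer cells of a type and less RNA per cell cannot be told apart.

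Most of the subunits were abundant in control colon. With FPKM as a level per length, 62 of the 92 genes had a CON mean above 100 FPKM, a level that 632 genes of the whole table reached. Complex IV held the highest levels: its 10 subunits other than tissue isoforms ran from 254 FPKM (Cox7b) to 1098 FPKM (Cox4i1, the ubiquitous regulatory subunit), with a median of 650 FPKM. The ATP synthase subunits ran from 109 FPKM (Atp5j, of the peripheral stalk) to 740 FPKM (Atp5b, the catalytic beta subunit), those of complex III from 147 FPKM (Uqcrq) to 465 FPKM (Uqcrh, the hinge protein), and those of complex II from 110 FPKM (Sdha, the flavoprotein that oxidises succinate) to 230 FPKM (Sdhd, a membrane anchor). The 37 subunits of complex I had a median of 111 FPKM and spanned 14.7 FPKM (Ndufa11) to 277 FPKM (Ndufb9), while its 7 assembly factors had means of 3.97 FPKM (Ndufaf5) to 13.6 FPKM (Ndufaf3). Within CON the median coefficient of variation of the subunits, without tissue isoforms, ran from 11.5% of the mean in complex V to 13.8% in complex I.

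**Figure D1:**
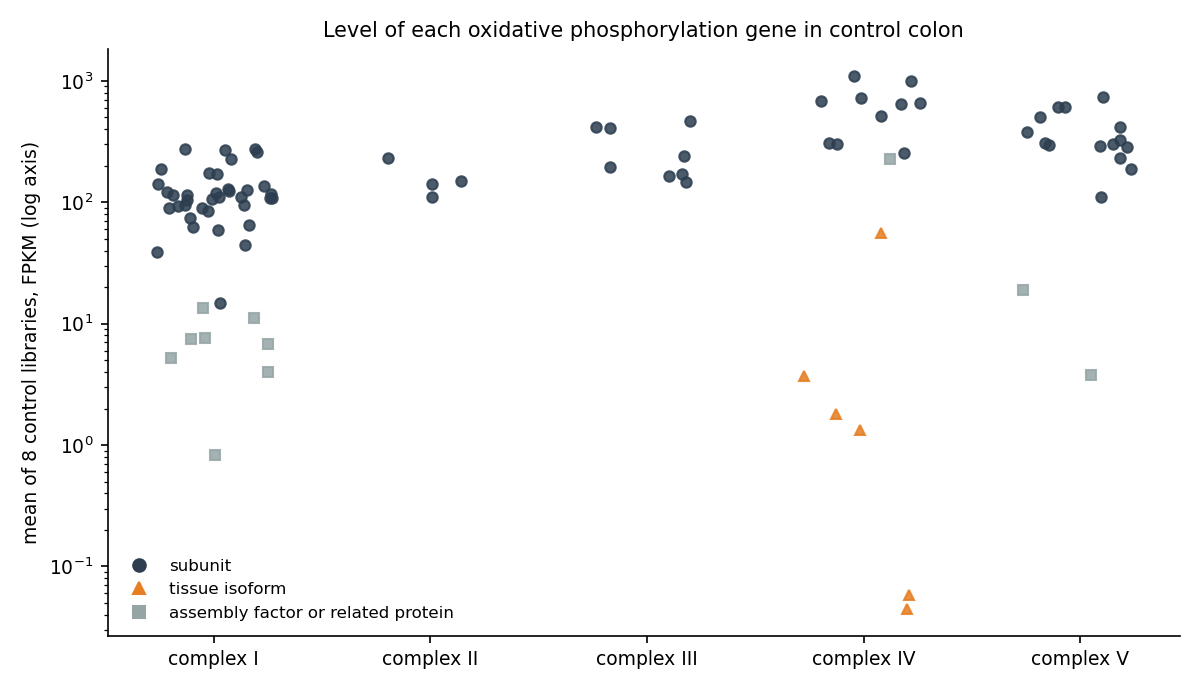
Mean level of each gene over the 8 control libraries in FPKM, on a log axis, by complex. Circles are subunits, triangles tissue isoforms and squares assembly factors or related proteins. Cox8c, at 0 in all libraries, is not drawn. Cox4i1 of complex IV is the highest point (1098 FPKM), and the tissue isoforms Cox7b2 and Cox6a2 are the lowest drawn.

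The tissue isoforms of complex IV, which replace a ubiquitous subunit in certain tissues, were mostly near the floor. Cox8c, an isoform of testis, was at 0 in all 22 libraries, and Cox6a2 and Cox7b2 did not exceed 0.186 and 0.253 FPKM in any. Cox4i2, an isoform best known from lung, had a CON mean of 1.33 ± 0.585 FPKM (SD, n = 8) and Cox6b2 1.79 ± 0.904 FPKM (SD, n = 8). Cox7a1, the isoform of heart and skeletal muscle, stood at 56.1 ± 15.8 FPKM (SD, n = 8), compared with 301 ± 33 FPKM (SD, n = 8) for Cox7a2, its widely expressed counterpart. Cox8b, an isoform of striated muscle and brown fat, stood at 3.74 ± 2.38 FPKM (SD, n = 8), far below Cox8a at 998 ± 153 FPKM (SD, n = 8). Cox6a2, Cox7b2, Cox8c and Ndufa4l2, a relative of Ndufa4, did not reach 1 FPKM in at least 4 libraries, and the other 88 genes were tested.

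Cox7a1 lies on chromosome 7 from 30184144 to 30186078 (plus strand) and Cox8b on the same chromosome from 140898945 to 140900446 (minus strand), in the GRCm38 build with GENCODE annotation. Ndufaf4, an assembly factor of complex I, lies on chromosome 4 from 24898083 to 24905001, and Uqcr11, a small subunit of complex III, is read from the minus strand of chromosome 10. The bases upstream of these 4 genes are shown because they stand for the muscle isoforms described below and for ubiquitous genes with a motif of a known regulator of respiratory genes. They are RefSeq sequences of the build GRCm38.p6, 5′ to 3′ on the strand of the gene, without bases that GENCODE places inside the gene. Capitals mark a match to the motif searched for NRF1, whose letters are the capitals of the Ndufaf4 line, or to the ETS motif CCGGAAG, the latter being the core bound by GABP. The windows are chr7:30183921-30184143 for Cox7a1, chr7:140900447-140900696 for Cox8b, chr4:24897833-24898082 for Ndufaf4 and chr10:80406831-80407071 for Uqcr11.
Cox7a1: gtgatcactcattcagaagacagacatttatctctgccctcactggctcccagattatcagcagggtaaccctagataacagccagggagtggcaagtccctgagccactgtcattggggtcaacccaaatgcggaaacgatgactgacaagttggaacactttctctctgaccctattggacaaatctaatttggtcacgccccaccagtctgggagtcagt
Cox8b: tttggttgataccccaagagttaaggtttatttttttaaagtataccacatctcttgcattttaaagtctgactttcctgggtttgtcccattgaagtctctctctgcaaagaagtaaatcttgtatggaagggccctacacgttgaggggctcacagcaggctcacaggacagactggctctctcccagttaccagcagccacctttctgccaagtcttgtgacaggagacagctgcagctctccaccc
Ndufaf4: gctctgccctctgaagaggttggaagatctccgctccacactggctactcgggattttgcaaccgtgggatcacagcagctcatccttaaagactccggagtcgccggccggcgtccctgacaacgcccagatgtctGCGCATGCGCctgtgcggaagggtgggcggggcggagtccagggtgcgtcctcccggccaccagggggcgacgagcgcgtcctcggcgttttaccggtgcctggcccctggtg
Uqcr11: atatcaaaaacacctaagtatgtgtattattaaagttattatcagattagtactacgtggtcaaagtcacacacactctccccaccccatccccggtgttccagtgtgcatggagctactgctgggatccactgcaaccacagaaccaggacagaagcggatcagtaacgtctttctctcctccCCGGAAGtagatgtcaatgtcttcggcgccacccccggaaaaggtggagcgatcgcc
The windows of Cox7a1 and Cox8b held neither motif on either strand. Ndufaf4 held the NRF1 motif and Uqcr11 the ETS motif, and both were chosen for that, so the 4 windows are not a comparison. Each motif was also absent from most of the matched genes counted below.

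Over windows of 250 bases before to 50 bases after the RefSeq start, 76 of the 92 genes could be matched. Each motif was searched on both strands, and some matches lay after the start. The NRF1 motif, named for the nuclear respiratory factor, was in 7 of the 76 (9.21%) and in 0.977% of all 27025 promoters. The ETS motif was in 16 (21.1%, against 9.12%), the YY1 motif AAGATGGC in 10 (13.2%, against 2.88%), the ERR motif AAGGTCA of estrogen-related receptors in 8 (10.5%, against 4.66%), and the CRE TGACGTCA in 4 (5.26%, against 1.88%). The TATA motif TATAAA was in 7 (9.21%, against 14.2%). These are matches of letters in a window and say nothing of binding in these mice.

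Levels of the complexes varied between libraries by amounts similar to the differences between groups. For each library the median was taken, over the tested genes of a complex, of log2(FPKM + 1) minus the CON mean of each gene. For complex I this median was 0.00 ± 0.15 over CON (SD, n = 8), -0.17 ± 0.19 over DSS (SD, n = 5), -0.17 ± 0.13 in HMLS (SD, n = 4) and -0.16 ± 0.11 in TM (SD, n = 5). For complex III it was -0.18 ± 0.21 in DSS (SD, n = 5), -0.13 ± 0.16 in HMLS (SD, n = 4) and -0.21 ± 0.10 in TM (SD, n = 5). For complex II it lay nearest to CON, at -0.04 ± 0.22 in DSS (SD, n = 5), -0.01 ± 0.17 in HMLS (SD, n = 4) and -0.05 ± 0.07 in TM (SD, n = 5). In DSS 6, complex I stood at -0.10 and complex V at -0.23 while complex II stood at 0.09, and in HMLS 8 complex I stood at -0.23 and complex II at 0.05. All the groups overlapped: over all tested genes the library medians ran from -0.26 (CON 6) to 0.20 (CON 8) in CON, from -0.38 (DSS 7) to 0.03 (DSS 2) in DSS, from -0.24 to -0.01 in HMLS and from -0.24 to 0.01 in TM. The same median over all genes of the table stayed between -0.04 and 0.03 in every library.

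**Figure D2:**
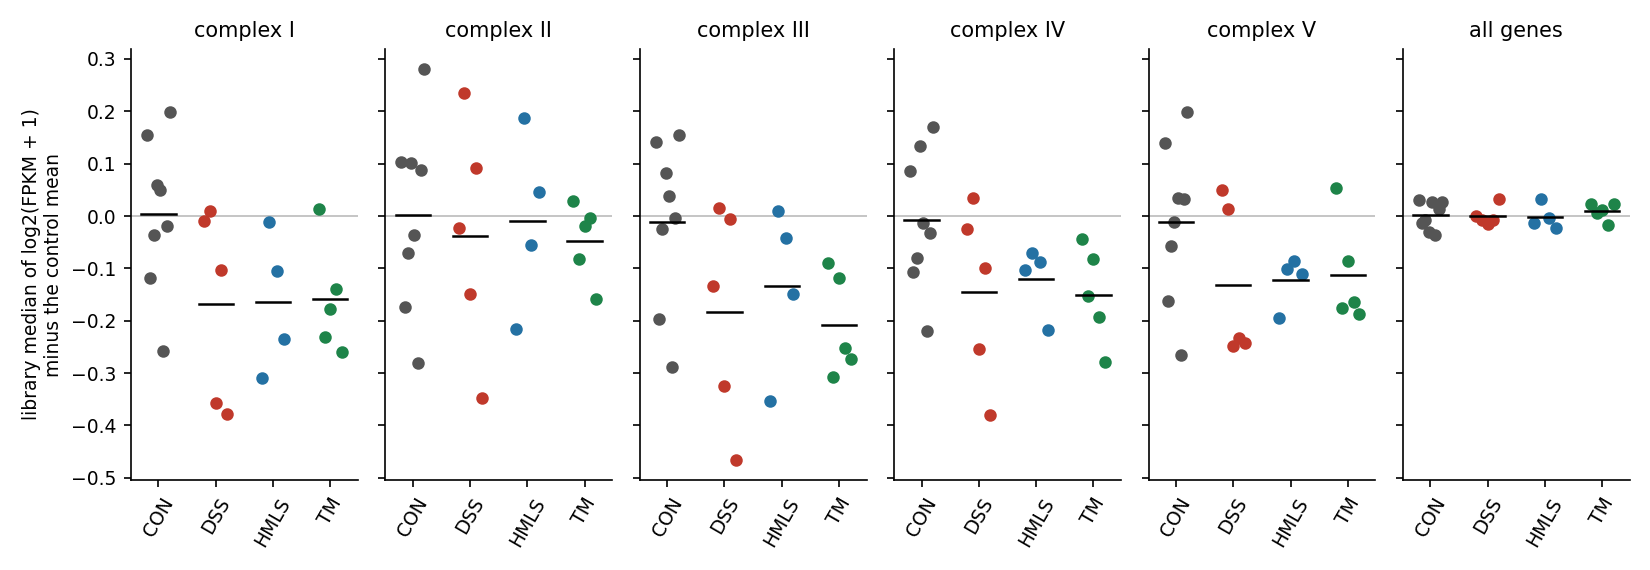
Median difference from the CON mean, in log2(FPKM + 1), of the genes of each complex and of all genes, with 1 point per library and a bar at the group mean. CON 6 is the lowest and CON 8 the highest control in each complex, and DSS 7 is the lowest DSS library in complexes I to IV.

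Summed over the 92 genes, the pathway took a mean of 4.17% of the total FPKM over the 8 CON libraries (SD 0.173), 3.54% over the 5 DSS libraries (SD 0.443), 3.56% over the 4 HMLS libraries (SD 0.335) and 3.67% over the 5 TM libraries (SD 0.266). The CON libraries lay between 3.86% and 4.39%. DSS 7 had the lowest share of the DSS libraries (2.97%) and DSS 1 the highest (3.93%), which lies inside the CON range.

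Against CON, genes of the pathway fell in each colitis group and none rose past the threshold. The test was limma on log2(FPKM + 1) over all genes at once, with a threshold of 0.05 on the p adjusted by Benjamini and Hochberg. In DSS, 14 of the 88 tested genes were lower (15.9%) and 0 higher, where 13.1% of all 13483 genes were lower and 14% higher. In HMLS, 17 were lower (19.3%) and 0 higher, where 16.6% of all genes were lower and 17.5% higher. In TM, 18 were lower (20.5%) and 0 higher, where 11.8% of all genes were lower and 14.3% higher. Counted in either direction, 27.1%, 34.1% and 26% of all genes passed in DSS, HMLS and TM, and at an unadjusted p under 0.05 stood 30, 26 and 28 of the 88 genes, where 41%, 45.3% and 39.2% of all genes did. In the values as deposited, the share that fell was thus near that of all genes in DSS and HMLS and above it in TM, and the share that rose was below that of all genes in each. Most of the rest leaned the same way without passing: 70, 66 and 69 of the 88 differences were negative in DSS, HMLS and TM, with medians of -0.16, -0.14 and -0.16 against -0.01, 0.00 and 0.01 for all genes. The 3 comparisons share the CON libraries, so they are not independent of each other. With every library scaled to the same FPKM sum, the median of all genes itself moved to -0.12 in DSS and -0.10 in HMLS, with the 88 genes at -0.28 and -0.25. The share of members that fell was then 38.2%, 42.7% and 32.6% in DSS, HMLS and TM, where 18.3%, 20.3% and 12.5% of all genes did. With quantile normalization it was 34.1%, 37.5% and 35.2%, where 12.4%, 15.3% and 12.2% of all genes did, so under both scalings it lay above the share of all genes in each comparison. With equal sums all genes gave 1168 higher and 2716 lower in DSS, 1513 and 2989 in HMLS and 1436 and 1847 in TM, against 1889 and 1766, 2339 and 2226, and 1924 and 1586 as deposited. Subunits alone gave 12, 15 and 16 lower of 78.

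The DSS count rested on few libraries. It was 4 without DSS 7, 6 without DSS 5 and 8 without CON 1. Those are 4.55%, 6.82% and 9.09% of the 88 genes, where 9.08%, 10.7% and 10.3% of all genes were lower. Without DSS 6 and DSS 7, the libraries with the lowest percent mapped, the DSS count was 2 (Cox7a1 and Cox7b). That is 2.27%, where 7.71% of all genes were lower. With the percent mapped as a covariate the DSS count was 0, while all genes then gave 4 higher and 22 lower. The median of the 88 genes was then -0.02, with 51 negative, against -0.16 without the covariate. Since percent mapped does not overlap between DSS and CON, it and the group cannot be told apart in that comparison. With the covariate the HMLS and TM counts were 16 and 18. The HMLS count was 10 without HMLS 8 and 11 without HMLS 3 (11.4% and 12.5%), where 11.5% and 14.1% of all genes were lower. The TM count was 8 without TM 5 and 9 without TM 7 or TM 8. Those are 9.09%, 10.2% and 10.2%, where 8.2%, 8.13% and 9.37% of all genes were lower. Without CON 8, 2 genes in DSS, 6 in HMLS and 6 in TM passed as higher, Sdha and Uqcrq among them in each. Of all genes 14.7%, 18.5% and 15.7% were then higher.

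**Figure D3:**
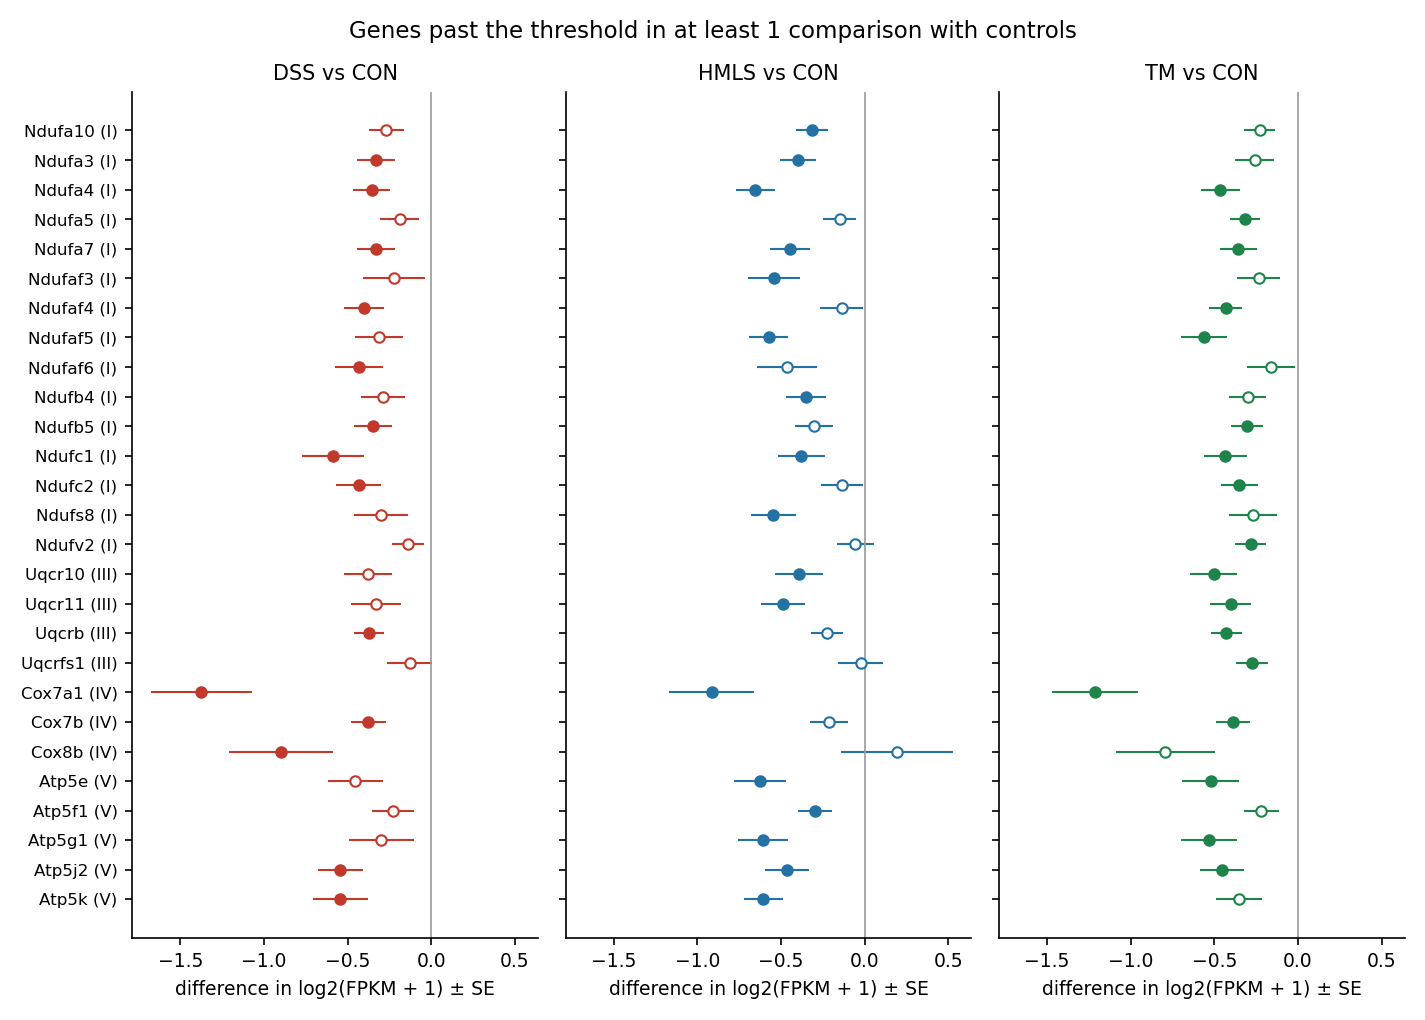
Difference in log2(FPKM + 1) from CON, with its standard error, of the genes that passed the threshold in at least 1 of the 3 comparisons with CON, with the complex in brackets. Filled points passed and open points did not. Cox7a1 shows the greatest decreases, and Cox8b in HMLS is the only point right of 0.

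Complex I gave 8 lower genes of 44 tested in DSS, 9 in HMLS and 9 in TM (18.2%, 20.5% and 20.5%). Among all genes 13.1%, 16.6% and 11.8% were lower in these comparisons. Ndufa4 was named for complex I and is now assigned to complex IV. Its level in CON had a lowest value of 249 FPKM, a median of 274 and a highest of 299. The DSS libraries read 266, 253, 201, 188 and 175 FPKM, the HMLS libraries 190, 129, 201 and 184 FPKM, and the TM libraries 256, 200, 223, 153 and 174 FPKM. All 4 HMLS libraries lay below every control, and 2 DSS libraries and 1 TM library lay within the control range. The difference was -0.36 ± 0.11 (SE) in DSS (adjusted p = 0.0293), -0.65 ± 0.12 (SE) in HMLS (adjusted p = 0.00115) and -0.46 ± 0.11 (SE) in TM (adjusted p = 0.00891), changes of -21.8%, -36.4% and -27.5% on that scale.

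Accessory subunits of the membrane arm of complex I were also among those that fell. Ndufc1 had a lowest CON value of 94.9 FPKM, a median of 115 and a highest of 156. Its DSS libraries read 96.0, 103, 46.4, 93.1 and 59.8 FPKM, its HMLS libraries 70.8, 93.2, 98.5 and 92.6 FPKM and its TM libraries 100, 77.2, 98.0, 77.6 and 74.3 FPKM. DSS 5 and DSS 7 were far below the other 3 DSS libraries, which lay at the lower edge of the controls. The difference was -0.59 in DSS (adjusted p = 0.0312), -0.38 in HMLS (adjusted p = 0.0469) and -0.43 in TM (adjusted p = 0.0216). Its partner Ndufc2 fell by 0.43 on the log2 scale in DSS (adjusted p = 0.0265) and by 0.35 in TM (adjusted p = 0.0317), and differed by -0.13 in HMLS (adjusted p = 0.428). Ndufb5 fell by 0.35 in DSS and by 0.30 in TM, and Ndufb4 by 0.35 in HMLS. Ndufa7, a subunit of the arm that faces the matrix, fell in all 3 comparisons (-0.33, -0.44 and -0.36 in DSS, HMLS and TM), and Ndufa3 fell by 0.33 in DSS and by 0.40 in HMLS.

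Of the 7 core subunits, which carry the flavin and iron-sulfur clusters, 2 fell in a comparison. They fell in 1 comparison each, HMLS and TM, where 16.6% and 11.8% of all genes were lower. Ndufs8, an iron-sulfur protein, went from 84.0 ± 13.9 FPKM in CON (SD, n = 8) to 56.8 ± 6.61 FPKM in HMLS (SD, n = 4), a difference of -0.55 (adjusted p = 0.00684). Ndufv2, of the part that oxidises NADH, fell by 0.28 in TM (adjusted p = 0.0361). Ndufs3, another core subunit, had the smallest p among complex I genes with a positive difference in DSS, 0.26 (adjusted p = 0.103). The accessory subunits Ndufa10 (-0.32 in HMLS) and Ndufa5 (-0.32 in TM) fell in 1 comparison each.

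Of the 7 Ndufaf assembly factors, which help build complex I without staying in it, 2 fell in each comparison with CON, and Ndufaf1, Ndufaf2 and Ndufaf7 passed in none. The 10 tested assembly factors and related proteins of all complexes gave 2 lower in each (20%). Among all genes 13.1%, 16.6% and 11.8% were lower in DSS, HMLS and TM. Ndufaf4 read 6.48 to 9.14 FPKM in CON (median 7.60), and in TM 6.29, 4.86, 6.08, 4.77 and 4.80 FPKM, all below the lowest control. Its DSS libraries read 6.93, 5.01, 4.61, 6.77 and 4.44 FPKM, and its HMLS libraries 5.08, 7.19, 8.89 and 6.35 FPKM, of which 2 lay below the controls and 2 within them. It fell by 0.43 in TM (adjusted p = 0.00652) and by 0.40 in DSS (adjusted p = 0.0249), and differed by -0.14 in HMLS (adjusted p = 0.434). Ndufaf5, which modifies the core subunit Ndufs7, fell by 0.57 in HMLS (adjusted p = 0.00236) and by 0.56 in TM (adjusted p = 0.00902). Ndufaf3, which works with Ndufaf4, fell by 0.54 in HMLS (adjusted p = 0.0160), and Ndufaf6 by 0.43 in DSS (adjusted p = 0.0380).

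Complex II, which links the chain to the citric acid cycle, gave 0 genes past the threshold in any comparison with CON, with 0, 2 and 0 of its 4 genes at an unadjusted limma p under 0.05 in DSS, HMLS and TM. Sdha had a lowest CON value of 82.1 FPKM, a median of 101 and a highest of 171, the last from CON 8. In DSS it read 112, 154, 118, 137 and 125 FPKM, in HMLS 124, 141, 152 and 139 FPKM and in TM 106, 136, 129, 139 and 141 FPKM. All the treated libraries lay within the control range. Differences were 0.24, 0.36 and 0.26 in DSS, HMLS and TM (adjusted p = 0.234, 0.0867 and 0.198), and without CON 8 Sdha passed as higher in each (0.34, 0.45 and 0.36).

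Complex III gave 1 lower gene of 8 in DSS, 2 in HMLS and 4 in TM (12.5%, 25% and 50%). Among all genes 13.1%, 16.6% and 11.8% were lower. Uqcrb, a small subunit near the ubiquinone site, varied little in CON, with a lowest value of 228 FPKM, a median of 236 and a highest of 262. It read 213, 199, 166, 188 and 163 FPKM in DSS and 207, 141, 195, 170 and 183 FPKM in TM, all below every control. In HMLS it read 171, 215, 230 and 209 FPKM, and HMLS 7 reached the control range. The difference was -0.37 ± 0.09 (SE) in DSS (adjusted p = 0.00852), -0.43 ± 0.09 (SE) in TM (adjusted p = 0.00520) and -0.22 ± 0.10 (SE) in HMLS (adjusted p = 0.0837). The small subunits Uqcr10 and Uqcr11 fell by 0.39 and 0.49 in HMLS and by 0.50 and 0.40 in TM, and Uqcrfs1, the Rieske iron-sulfur protein, by 0.27 in TM (adjusted p = 0.0458).

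Uqcrq, another small subunit of complex III, had the greatest positive difference of the 88 genes in each comparison with CON. It had a lowest CON value of 79.8 FPKM, a median of 134 and a highest of 283, again from CON 8. In DSS it read 128, 305, 176, 272 and 237 FPKM, in HMLS 161, 270, 175 and 201 FPKM and in TM 235, 256, 194, 166 and 145 FPKM. Differences of 0.63, 0.52 and 0.49 in DSS, HMLS and TM did not pass (adjusted p = 0.0838, 0.127 and 0.134), and without CON 8 they were 0.77, 0.66 and 0.64 and passed. The DSS difference also passed without DSS 1 (0.81).

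Complex IV gave 3 lower genes of 15 in DSS, 1 in HMLS and 2 in TM (20%, 6.67% and 13.3%). Among all genes 13.1%, 16.6% and 11.8% were lower, so the share of complex IV lay below that of all genes in HMLS and near it in TM. Cox7a1 had the greatest decrease of the 88 genes in each comparison. Cox7a1 had a lowest CON value of 34.7 FPKM, a median of 59.5 and a highest of 77.8. It read 21.6, 29.7, 10.8, 42.8 and 11.1 FPKM in DSS, 38.1, 35.6, 30.2 and 15.4 FPKM in HMLS and 30.0, 12.4, 40.7, 18 and 22 FPKM in TM. In each colitis group all but 1 or 2 libraries lay below the lowest control, and DSS 6, TM 6, HMLS 3 and HMLS 6 lay among the low controls. The difference was -1.38 ± 0.30 (SE) in DSS (adjusted p = 0.00567), -0.91 ± 0.25 (SE) in HMLS (adjusted p = 0.0136) and -1.21 ± 0.26 (SE) in TM (adjusted p = 0.00476), changes of -61.5%, -46.9% and -56.9% on that scale. Without HMLS 8 the HMLS difference was -0.64 and did not pass (adjusted p = 0.0531), and with the percent mapped as a covariate the DSS difference was -1.35 and did not pass (adjusted p = 0.233).

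Cox8b had a lowest CON value of 1.30 FPKM, a median of 2.96 and a highest of 7.41. It read 2.66, 0.878, 0.706, 1.83 and 0.927 FPKM in DSS, 0.958, 2.18, 0.915, 1.83 and 1.72 FPKM in TM, and 4.61, 3.07, 2.62 and 5.93 FPKM in HMLS. Every DSS and TM library lay below the control median, and HMLS lay within the control range. It fell by 0.90 in DSS (adjusted p = 0.0444), and differed by -0.79 in TM (adjusted p = 0.0614) and by 0.19 in HMLS (adjusted p = 0.675). The DSS call was lost when CON 2, CON 3, CON 4, CON 5, CON 6, CON 8, DSS 2, DSS 5 or DSS 7 was left out (-0.91 to -0.76), and the TM difference passed without CON 1 (-0.90) or CON 7 (-0.92). At such low levels log2(FPKM + 1) understates a fold change.

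Markers of muscle and fat are given beside these isoforms. The 9 smooth muscle markers summed to 1364 to 2663 FPKM in CON, 636 to 2375 FPKM in DSS, 1450 to 2639 FPKM in HMLS and 916 to 1960 FPKM in TM. Of 13 striated muscle markers 3 reached 1 FPKM in CON, DSS and HMLS and 4 in TM, with sums of 10.2 to 25.7 FPKM in CON, 9.23 to 18.9 FPKM in DSS, 14.4 to 19.8 FPKM in HMLS and 10.7 to 17.0 FPKM in TM, most of it Ckm, and Myh4 was at 0 in 20 of 22 libraries. The 10 white fat markers summed to 120 to 1455 FPKM in CON, 109 to 192 FPKM in DSS, 138 to 591 FPKM in HMLS and 107 to 196 FPKM in TM. The brown fat gene Ucp1 was at 0 in 16 of 22 libraries and did not exceed 0.11 FPKM. Counted singly, 3, 0 and 4 of 9 smooth muscle markers were lower than CON in DSS, HMLS and TM (33.3%, 0% and 44.4%). White fat gave 7, 1 and 7 lower of 9 tested (77.8%, 11.1% and 77.8%) and 1 higher in each. Striated muscle gave 1, 0 and 1 lower of 3 tested, and 0 markers of either muscle list were higher. Brown fat gave 0 lower and 1, 1 and 0 higher of 2. Among all genes 13.1%, 16.6% and 11.8% were lower and 14%, 17.5% and 14.3% higher. The part of any of these in the levels of Cox7a1 and Cox8b was not tested.

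Among the ubiquitous subunits of complex IV, Cox7b fell by 0.38 in DSS (adjusted p = 0.0168) and by 0.39 in TM (adjusted p = 0.0136). Its CON values ran from 235 to 280 FPKM, and all 5 DSS libraries (225, 195, 188, 227 and 151 FPKM) lay below them. The most abundant of the 92 genes, Cox4i1, differed by 0.03, 0.17 and 0.07 in DSS, HMLS and TM, with a 95% interval of -0.24 to 0.30 in DSS. Cox7a2l, a factor that joins complexes III and IV into supercomplexes, differed by -0.24 in DSS (adjusted p = 0.0875).

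**Figure D4:**
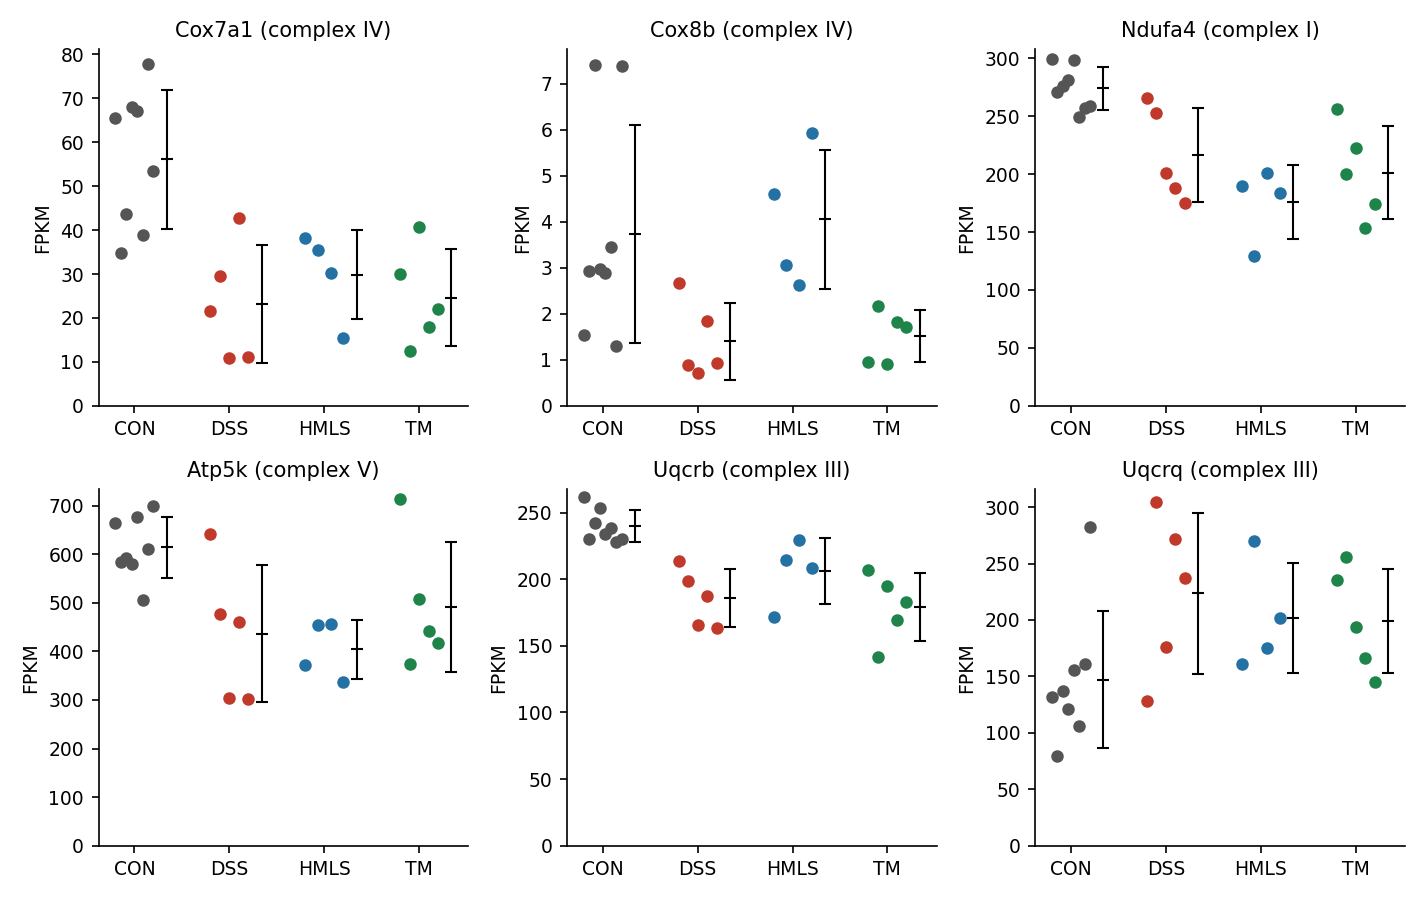
Level in FPKM of 6 genes in each library, with group mean and SD as a bar at the right of each group. Group means of Cox7a1, Ndufa4, Atp5k and Uqcrb are lower in the 3 colitis groups than in CON, that of Cox8b is lower in DSS and TM and not in HMLS, and those of Uqcrq are higher, with CON 8 apart from the other controls.

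Complex V gave 2 lower genes of 17 in DSS, 5 in HMLS and 3 in TM (11.8%, 29.4% and 17.6%). Among all genes 13.1%, 16.6% and 11.8% were lower. Atp5k, the small subunit e that holds ATP synthase dimers together, had a lowest CON value of 505 FPKM, a median of 602 and a highest of 699. It read 641, 476, 303, 460 and 303 FPKM in DSS, 371, 454, 456 and 336 FPKM in HMLS and 713, 374, 509, 441 and 417 FPKM in TM. All 4 HMLS libraries lay below every control, whereas DSS 1 and TM 6 lay among the controls and TM 3 above them. It fell by 0.54 in DSS (adjusted p = 0.0250) and by 0.61 in HMLS (adjusted p = 0.00171), and differed by -0.35 in TM (adjusted p = 0.0733). Pseudogenes are named after Atp5k and 4 others of the 92 genes (Atp5c1, Atp5l, Ndufab1 and Uqcrh), and whether reads were shared with them was not tested, so these levels are uncertain.

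Atp5j2, the small subunit f of the membrane part, fell in all 3 comparisons. It had a lowest CON value of 404 FPKM, a median of 523 and a highest of 576, and read 407, 426, 292, 362 and 253 FPKM in DSS. In HMLS it read 284, 453, 399 and 329 FPKM, and in TM 500, 302, 406, 344 and 303 FPKM. Most treated libraries lay below the lowest control, and DSS 1, DSS 2, HMLS 6, TM 3 and TM 6 did not. Differences were -0.54 in DSS (adjusted p = 0.00989), -0.46 in HMLS (adjusted p = 0.0150) and -0.45 in TM (adjusted p = 0.0209).

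The c ring of ATP synthase, which carries protons, is encoded by 3 genes whose mature proteins are alike. Atp5g1 fell by 0.61 in HMLS (adjusted p = 0.00693) and by 0.53 in TM (adjusted p = 0.0288), and differed by -0.30 in DSS (adjusted p = 0.264). Its CON values ran from 200 to 413 FPKM, with the HMLS libraries at 188, 190, 210 and 175 FPKM. Atp5g3 went from 326 ± 70.4 FPKM in the controls (SD, n = 8) to 408 ± 126 FPKM under DSS (SD, n = 5), 419 ± 71.3 FPKM in HMLS (SD, n = 4) and 390 ± 37.3 FPKM in TM (SD, n = 5), positive differences that did not pass (adjusted p = 0.242, 0.0805 and 0.144). Atp5g2 differed by -0.11, -0.18 and 0.03 and did not pass. Differences between the 3 genes were not tested. Atp5e, the epsilon subunit of the central stalk, fell by 0.63 in HMLS (adjusted p = 0.00797) and by 0.52 in TM (adjusted p = 0.0329), and Atp5f1, of the peripheral stalk, by 0.30 in HMLS (adjusted p = 0.0355). The catalytic subunit Atp5b held 740 ± 66.5 FPKM in the controls (SD, n = 8) and 720 ± 78.8 FPKM under DSS (SD, n = 5).

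Whether either deep sea water changed these genes under DSS was asked by comparing HMLS and TM with DSS. In limma 0 of the 88 genes passed in HMLS against DSS, TM against DSS or HMLS against TM, and 0% of all 13341 genes did. At an unadjusted limma p under 0.05 stood 1 of the 88 genes in each comparison, where 5.55%, 2.75% and 9.44% of all genes did. The medians of the 88 differences were 0.00, 0.00 and -0.01, against 0.00, 0.00 and -0.01 for all genes. The median in TM against DSS depended on the design. With the replicate number as a block it was 0.13 with 12 of 88 negative. Numbers were taken to pair TM with DSS, although own numbers matched best in only 1 of 3 pairs. The block was fitted over the 3 colitis groups, so it also held HMLS, whose numbers did not pair. With the percent mapped as a covariate the median was -0.17 with 73 negative, and 0 genes passed the threshold in either fit. Percent mapped did not overlap between DSS (82.3% to 88.9%) and TM (89.5% to 92.7%), so it and the group cannot be told apart in that comparison. In HMLS against DSS the median was 0.12 with the block, with 19 negative. It was -0.10 with the covariate, where the HMLS libraries mapped at 88.8% to 90.5%. The 95% interval lay within 0.5 of 0 on the log2 scale for 63, 73 and 62 of the 88 genes, and within 1 for 86, 88 and 86. These intervals do not show that the groups were alike.

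The gene at an unadjusted p under 0.05 was Cox8b in both comparisons of HMLS and Cox7a2l in TM against DSS. Cox8b was 1.09 higher in HMLS than in DSS (95% interval 0.54 to 1.64, limma adjusted p = 0.849) and 0.99 higher than in TM (95% interval 0.43 to 1.54, limma adjusted p = 0.407), and its lowest HMLS value, 2.62 FPKM, lay below 1 DSS library and above all TM libraries. Cox7a2l read 191, 208, 206, 188 and 174 FPKM in DSS and 211, 214, 248, 216 and 241 FPKM in TM, with no overlap, a difference of 0.22 (95% interval 0.02 to 0.43, adjusted p = 1). Cox7a1 differed by 0.46 in HMLS and by 0.16 in TM from DSS, with intervals of -0.42 to 1.34 and -0.67 to 0.99. Beyond Cox8b, no difference in HMLS against DSS exceeded that of Cox7a1.

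**Figure D5:**
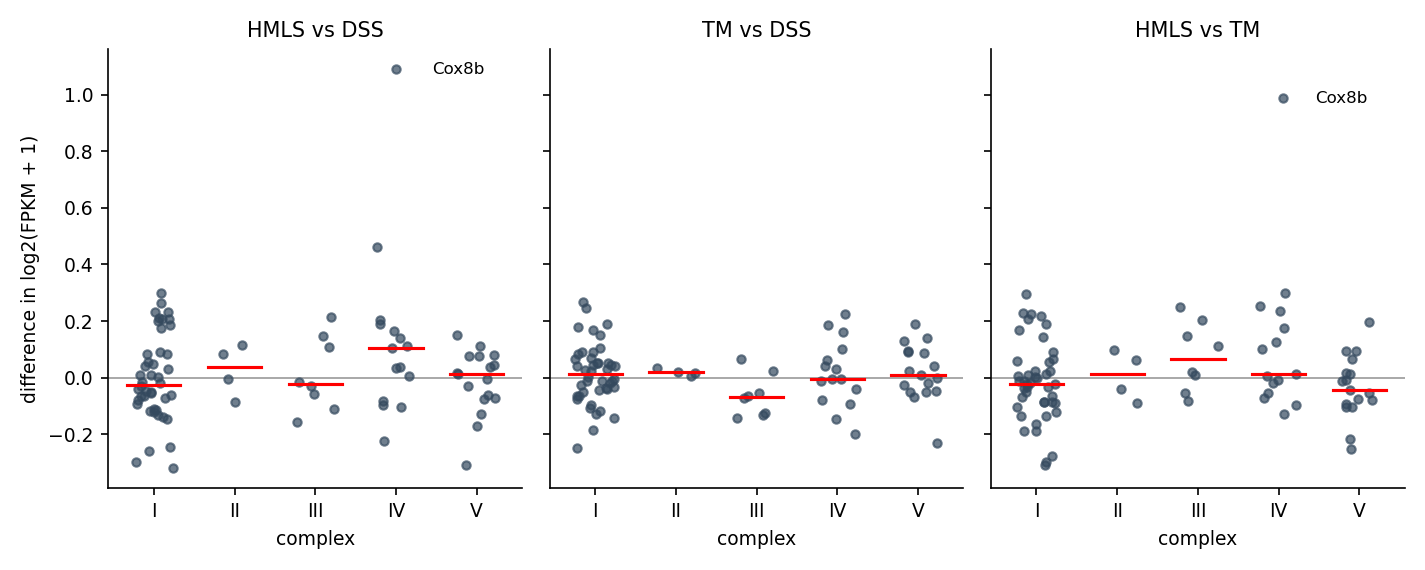
Difference in log2(FPKM + 1) between the colitis groups, with 1 point per tested gene by complex and a red bar at the median of the complex. The points scatter about 0 in all 5 complexes, with Cox8b at 1.09 in HMLS vs DSS and 0.99 in HMLS vs TM.

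Other genes of the pathway, from lists made by function, were counted in the same fits. Of 41 tested assembly factors outside the 92 genes, 8, 8 and 11 were lower (19.5%, 19.5% and 26.8%) and 1, 2 and 2 higher in DSS, HMLS and TM against CON, where 13.1%, 16.6% and 11.8% of all genes were lower and 14%, 17.5% and 14.3% higher. Coa6, which helps load copper into complex IV, fell by 0.78 in DSS and 0.87 in HMLS. Bcs1l, which inserts the Rieske protein into complex III, fell by 0.61 in DSS, and Uqcc2, another complex III factor, by 0.75 in HMLS and by 0.64 in TM. Tmem70, which helps assemble ATP synthase, fell by 0.44 in DSS and by 0.41 in TM. Of 30 mitochondrial ribosome and import genes 10, 7 and 5 were lower (33.3%, 23.3% and 16.7%) and 1, 0 and 1 higher, among them the matrix chaperones Hspd1 (-0.60 in DSS) and Hspe1 (-0.67 in DSS, -0.83 in HMLS, -0.68 in TM).

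Genes of ubiquinone synthesis and other electron carriers moved both ways: of 22, 5, 6 and 6 were lower (22.7%, 27.3% and 27.3%) and 2, 4 and 3 higher (9.09%, 18.2% and 13.6%). Coq7 and Pdss1, enzymes of ubiquinone synthesis, rose by 0.73 and 0.70 in DSS, while Coq4, of the same pathway, fell by 0.69, and Dhodh, which feeds electrons from pyrimidine synthesis to ubiquinone, fell by 0.59. Of 18 citric acid cycle genes 3, 3 and 1 were lower (16.7%, 16.7% and 5.56%) and 0, 2 and 0 higher. Of all genes 13.1%, 16.6% and 11.8% were lower. Fumarase, Fh1, was lower in DSS (-0.41) and TM (-0.32). Of 19 tested regulators of mitochondrial biogenesis 2, 1 and 3 were lower and 4, 7 and 3 higher (21.1%, 36.8% and 15.8%), where 14%, 17.5% and 14.3% of all genes were higher. Ppargc1a, the coactivator best known for driving respiratory genes, rose by 0.80 in HMLS, and Ppard, a nuclear receptor, by 0.79 in DSS, while Tfb1m, which acts on mitochondrial ribosomal RNA, fell by 0.58 in DSS. Among carriers of ADP, ATP and phosphate 1 of 7 in DSS, 3 of 8 in HMLS and 1 of 8 in TM were higher and 0 lower, with Vdac1, the outer membrane channel, higher by 0.42, 0.52 and 0.33. In HMLS and TM against DSS, 0 genes of any of these lists passed.

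Negative medians were seen in short and in long transcripts, but a larger share of the short ones was called lower. Of the 38 genes with a transcript under 700 bases, 9, 10 and 10 were lower in DSS, HMLS and TM, with medians of -0.16, -0.18 and -0.20. Of the 50 longer ones 5, 7 and 8 were lower, with medians of -0.15, -0.13 and -0.12. Of all genes 13.1%, 16.6% and 11.8% were lower. The share of the short genes lay above this in each comparison, and that of the longer ones only in TM. The direction of the median was the same in both, and short and long genes were not tested against each other.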

How the data were processed

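Total RNA of mouse colon was read in 22 libraries of 4 groups. Per the submitters' processing notes, the tools were bcl2fastq 2.20, Bowtie, TopHat2 2.0.13 and Cufflinks 2.2.0, with the mm10 build. The authors deposited gene values whose unit the table does not name. The values the authors deposited were taken as FPKM, fragments per length and library size, because Cufflinks computes that unit. This is an inference. The reads behind each gene are unknown, so counting error could not be given. The authors also deposited the read count and mapped read count of each library and the percent mapped.

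A gene entered a fit when 4 or more of its libraries reached 1 FPKM. The test on log2(FPKM + 1) was that of limma 3.58.1 (R 4.3.3; mean trend, robust), two-sided, with Benjamini-Hochberg adjustment over all genes and a threshold of 0.05. Fits against CON held only the groups compared, and the 3 colitis groups shared 1 fit. The scripts were tested on simulated data. Members, lists and tests were chosen with earlier results of these data known. Named genes were the 2 of smallest p per complex and direction, those that passed (up to 10 per complex and direction), isoforms, complex II and, of other lists, up to 4 per comparison. GENCODE positions matched 92 of 92 genes. No pair of libraries held identical values. Replicate numbers were taken to pair TM with DSS, where the deviations of all 3 numbered pairs correlated (0.137 to 0.460), although own numbers matched best in only 1 of 3. With that replicate block 0 genes passed, as without it. Alternatives were scalings, filters, pseudocounts, designs and left-out libraries.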

Additional observations from a re-analysis of the deposited data

Results flagged for a closer look

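Examined were 188 groups of 4 to 8 libraries, over 42 of the named genes and the medians of the 5 complexes. In 9 a library lay far from the others relative to the range of its group, where chance gives about 1 in 20. In CON, library CON 8 stood above the other controls in Atp5g3 (476 FPKM, next 349), Cox4i1 (1504 FPKM, next 1105), Sdha (171 FPKM, next 122) and Uqcrq (283 FPKM, next 161). In TM, library TM 3 stood above the others in Ndufa5 (96.3 FPKM, next 86.4), Ndufs8 (98.9 FPKM, next 69.1) and Sdhc (148 FPKM, next 123). HMLS 3 was low in Cox7b (165 FPKM, next 235), and DSS 7 was low in Sdhd (185 FPKM, next 250).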

How the results depend on the processing

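The 88 differences from CON had a negative median under every alternative run, but in DSS it was only -0.02 with the percent mapped as a covariate, and no gene passed between colitis groups under any. The number lower than CON in DSS, HMLS and TM rose to 34, 38 and 29 with equal FPKM sums and to 30, 33 and 31 with quantile normalization, which also gave 1 higher in HMLS and 1 in TM. With the percent mapped as a covariate it was 0 in DSS. With a replicate block it was 1, 0 and 1 (1.14%, 0% and 1.14%), where 7.8%, 3.24% and 6.78% of all genes were lower. However, the replicate numbers did not pair the libraries (correlations from -0.211 to 0.335, -0.125 to 0.0797 and -0.00138 to 0.208, with 2 of 5, 0 of 4 and 1 of 5 matching their own number best). The pairs of HMLS with DSS (-0.354 and 0.364) and with TM (-0.217 to 0.0713) did not either. Chosen after seeing the data, leaving out DSS 6 and DSS 7 gave 2 lower in DSS, and leaving out CON 6 and CON 8, whose levels of these genes were also the extremes of CON, gave 2, 5 and 5 higher. Leaving out 1 library gave 4 to 20, 10 to 22 and 8 to 26 lower, and 0 to 2, 0 to 6 and 0 to 6 higher. Small differences that had not passed changed sign. Cox8b in HMLS against CON was -0.085 with the block. Uqcrq in HMLS against DSS was 0.20 with the covariate, 0.055 without DSS 6 and DSS 7, and -0.29 to 0.018 leaving out 1 library. Uqcrq in TM against DSS was 0.33 and 0.034 under the first 2 of these. Cox7a1 in TM against DSS was -0.34 with the covariate and -0.049 to 0.42 leaving out 1 library, and Cox8b there -0.00494 to 0.27. Uqcrq in HMLS against TM was -0.026 with equal sums and -0.025 with quantile normalization, -0.13 with the covariate, and -0.13 to 0.12 leaving out 1 library. The cause of these changes was not tested. Unknown reads per gene leave the precision of low genes such as Cox8b unknown.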
